A study of Mus musculus with 8 samples.

Results

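Expression of 10 acid-base genes of kidney intercalated cells was compared in mouse kidney after bisphenol A (BPA) or vehicle. The genes were Atp6v0d2, Atp6v1b1, Atp6v1g3, Slc4a1, Slc26a4, Foxi1, Car12, Rhcg, Rhbg and Aqp6. They were taken by name from a table of 54532 genes, and all 10 were found there. All 10 also had a mean of at least 0.5 FPKM (fragments scaled by gene length and library size), the minimum for testing, which 13376 genes met. The table holds 8 libraries of polyadenylated kidney RNA from ICR mice, an outbred stock, with 4 libraries after BPA and 4 after vehicle. BPA is a building block of polycarbonate and epoxy resins that binds estrogen receptors weakly. The sources used here give no dose, route, duration, age or composition of the vehicle, and the labels name no transgene or other allele. They do not say whether each library is a separate animal. Each p-value therefore sets the group difference against the spread among libraries of the same group. That spread may not be the spread among animals, and it may be technical.

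Intercalated cells lie scattered among the principal cells of the connecting tubule and collecting duct. Type A cells secrete acid into the urine through a proton pump, the V-ATPase, at the apical membrane and return bicarbonate to the blood through the exchanger encoded by Slc4a1. Type B cells secrete bicarbonate through pendrin, the chloride and bicarbonate exchanger encoded by Slc26a4. Foxi1 is the forkhead transcription factor on which the identity of both cell types depends, and loss of Atp6v1b1, Atp6v0a4, Slc4a1 or Foxi1 function is known to cause distal renal tubular acidosis.

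Because Foxi1 is itself one of the 10 genes and forkhead proteins bind motifs around the letters TGTTTA, the promoters of the 10 genes were searched for these letters on both strands. RefSeq promoters (GRCm38.p6) were found for 7 of the 10 by symbol (Atp6v1b1, Atp6v1g3, Slc26a4, Foxi1, Car12, Rhcg and Aqp6), and the 250 bases before each start were used. The letters occurred in 2 of the 7, Atp6v1b1 and Car12, and in 12.03% of all 32851 promoters. The longer TGTTTAC, which contains TGTTTA, occurred in 1 of the 7 and in 3.17% of all promoters. Both promoters with the letters are shown in part, as 200 bases on the plus strand that lie wholly before the annotated starts, with the motif letters in capitals. The match begins 98 bases before the RefSeq start in Atp6v1b1 (shown part chr6:83742767-83742966) and 11 bases before it in Car12 (chr9:66713486-66713685).
Atp6v1b1: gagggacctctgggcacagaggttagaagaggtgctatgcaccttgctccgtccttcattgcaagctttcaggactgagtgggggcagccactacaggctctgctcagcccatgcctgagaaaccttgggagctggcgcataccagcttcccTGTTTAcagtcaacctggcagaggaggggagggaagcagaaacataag
Car12: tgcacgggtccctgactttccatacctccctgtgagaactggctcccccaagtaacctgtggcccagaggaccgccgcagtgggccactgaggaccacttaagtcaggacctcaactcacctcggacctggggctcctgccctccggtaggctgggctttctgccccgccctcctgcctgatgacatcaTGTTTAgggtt
A match describes the letters of this window and is not evidence of binding.

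The libraries held 15944081 to 17351540 reads, as recovered from FPKM, and the 10 genes together took 0.0541 to 0.0725% of them. Some libraries stood apart. Vehicle replicate 4 held skeletal muscle transcripts (5 listed markers summing to 224 FPKM, against 0.231 to 1.17 FPKM in the other 7 libraries) and the highest sum of the 4 fat markers, 50.1 FPKM. In BPA replicate 4, 17174 genes were above 0, against 19090 to 20845 elsewhere. The share of reads from the mitochondrial genome moved with the groups: it was 7.02, 8.33, 7.11 and 7.19% in vehicle and 9.85, 9.81, 9.66 and 14.2% in BPA, without overlap, and its part in the results was not tested. The clock gene Arntl was at 2.22 to 4.27 FPKM in replicates 1 and 2 of both groups and at 0.106 to 0.55 FPKM in replicates 3 and 4. Changes of the 10 genes are therefore also given without both replicates 4 and within replicates 1 and 2 and within replicates 3 and 4, where pairs of libraries allow no test.

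Transcripts of all 10 genes were detected in every library, over a range of levels. In vehicle the order of mean FPKM, a level per length, ran Car12, Slc26a4, Rhcg, Atp6v1g3, Atp6v1b1, Aqp6, Atp6v0d2, Foxi1, Rhbg and Slc4a1. Only Foxi1 and Rhbg, among neighbours in that order, had vehicle ranges that did not overlap. The highest, Car12, stood above 89.5% of the tested genes in vehicle, and the lowest, Slc4a1, above 42.0%. Recovered reads per library ran from 62 to 134 for Rhbg, the least sampled gene, and from 4040 to 7145 for Car12, the most sampled one, so Rhbg carries the most counting error of the 10. In bulk tissue, fewer cells of a type and less RNA per cell cannot be told apart.

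BPA against vehicle was tested with limma on log2(FPKM + 1), a scale that understates the change of low genes, with Benjamini-Hochberg adjustment over all tested genes. None of the 10 genes was called at an adjusted p under 0.05 (smallest limma adjusted p = 0.473), where 1 of 13376 genes was called in all (0.00748%). None of the 10 had an unadjusted p under 0.05, which 4.18% of all tested genes had as higher and 6.83% as lower (11.0% together). Limma-voom on recovered reads also called none of the 10, and none had an unadjusted p under 0.05 there. Of the 10, 5 genes had a change above 0 and 5 below, close to the 48.0% of all tested genes above 0. The median log2 change of the 10 was 0.04, against -0.01 over all tested genes. In each of the 10 the BPA and vehicle libraries overlapped, whereas 7.89% of tested genes had groups without overlap. The 95% intervals were wide: that of Atp6v0d2 ran from 0.975 to 1.96-fold, and that of Atp6v1g3 from 0.588 to 1.39-fold.

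**Figure D1:**
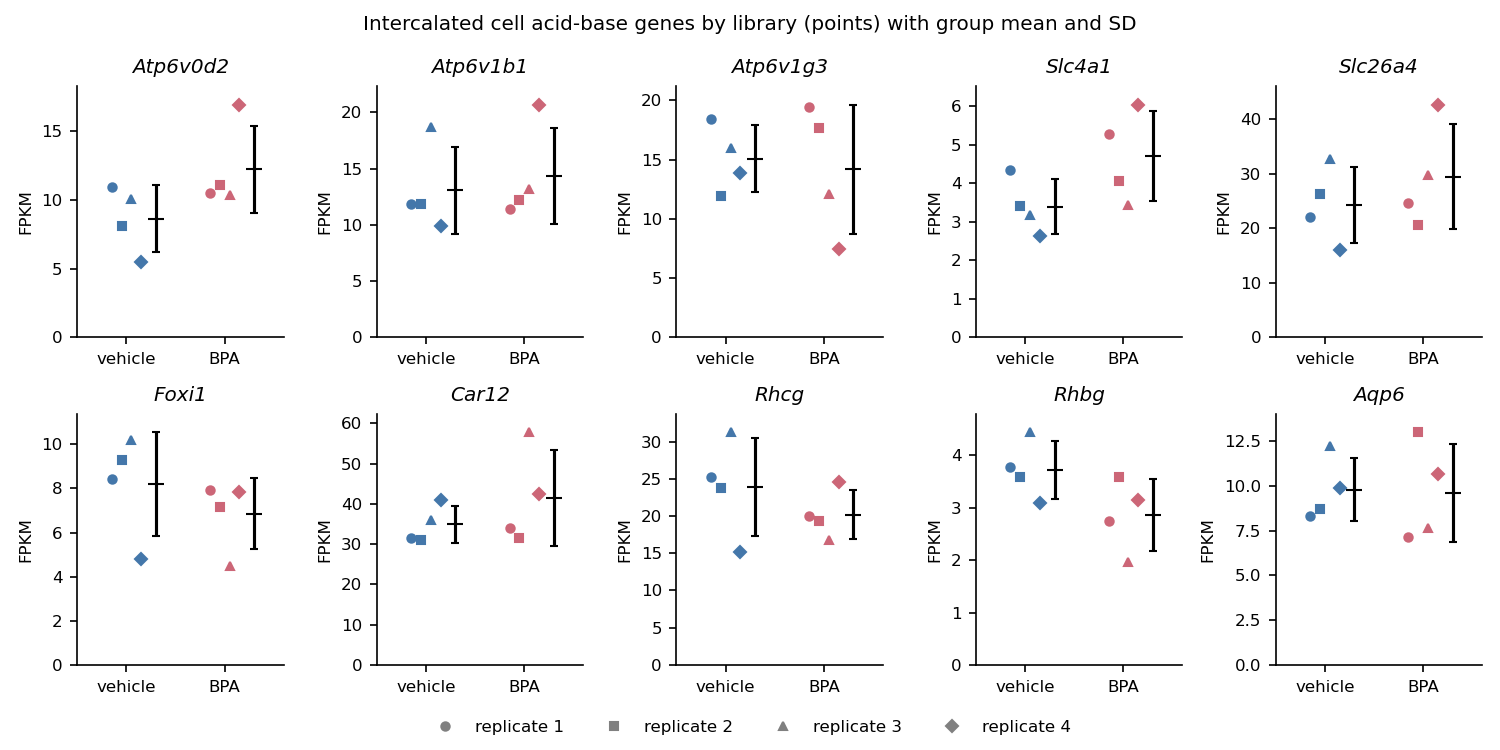
FPKM (linear axes from 0) of the 10 intercalated cell genes in each of 4 vehicle and 4 BPA libraries. Points are libraries with a symbol for each replicate number, and bars are the group mean and SD; the groups overlap in every panel.

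Of the 10 genes, 3 encode V-ATPase subunits whose expression is restricted to few tissues, the kidney among them. Atp6v0d2, a subunit of the stalk that joins the membrane sector to the catalytic sector (ENSMUSG00000028238, chromosome 4, 19876841 to 19922605, minus strand), was at 10.9, 8.10, 10.1 and 5.45 FPKM with vehicle replicates 1 to 4. The BPA libraries had 10.5, 11.1, 10.4 and 17.0 FPKM. All 4 BPA libraries lay above the vehicle mean of 8.64 ± 2.44 FPKM (SD, n = 4), but vehicle replicate 1 lay above 2 of them. The mean in BPA was 12.2 ± 3.16 FPKM, and the log2 change of 0.47 (SE 0.223, limma adjusted p = 0.473) did not pass. It was the highest change of the 10 and rested in part on the replicates 4, which were the lowest library in vehicle and the highest in BPA. Without them the change was 0.13, with 0.18 from replicates 1 and 2 alone and 0.76 from replicates 3 and 4 alone. Atp6v0d2 is also expressed in macrophages and osteoclasts: the 5 macrophage markers summed to 20.6 to 25.9 FPKM with vehicle and 19.0 to 31.3 FPKM with BPA, none of them at 0 in all libraries, and their part in the result was not tested. BPA replicate 4, with the highest Atp6v0d2, had a macrophage sum of 20.8 FPKM.

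Atp6v1b1, the B subunit of the catalytic sector (ENSMUSG00000006269, chromosome 6, 83742990 to 83758855, plus strand), was at 11.8, 11.8, 18.7 and 9.86 FPKM with vehicle. After BPA it stood at 11.4, 12.2, 13.2 and 20.7 FPKM. In each group 1 library stood high, vehicle replicate 3 and BPA replicate 4, and the others lay between 9.86 and 13.2 FPKM. The log2 change was 0.13 (SE 0.228, limma adjusted p = 0.833), and without both replicates 4 it turned to -0.16. Atp6v1g3, the G subunit of the peripheral stalk (ENSMUSG00000026394, chromosome 1, 138273738 to 138289462, plus strand), was at 18.5, 11.9, 16.0 and 13.9 FPKM with vehicle. With BPA its level was 19.5, 17.7, 12.1 and 7.44 FPKM. BPA replicate 4, the highest library for Atp6v0d2 and Atp6v1b1, was thus the lowest for Atp6v1g3. Its log2 change was -0.15 (SE 0.273, adjusted p = 0.841), with 0.30 within replicates 1 and 2, -0.60 within replicates 3 and 4, and 0.077 without both replicates 4. The 3 pump subunits thus had no common order of libraries.

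Each of these subunits has a widely expressed paralog that the whole kidney carries at a higher level. Atp6v1b1 made up 12.8 ± 3.13% of the summed FPKM of the B subunits in vehicle and 13.6 ± 4.31% in BPA, with Atp6v1b2 at 88.1 ± 1.22 and 92.5 ± 15.9 FPKM. For the G subunits, Atp6v1g3 held 9.89 ± 1.13% in vehicle and 8.40 ± 2.96% in BPA. Atp6v0d2 held 10.7 ± 2.54% of the d subunits in vehicle and 16.3 ± 4.63% in BPA, and its lowest and highest shares were 7.61% in vehicle replicate 4 and 22.7% in BPA replicate 4. The paralogs Atp6v1g1 and Atp6v0d1 had log2 changes of 0.16 and -0.17 (adjusted p = 0.720 and 0.614). In the a subunit the order was the other way round: Atp6v0a4 held 66.4 ± 5.31% in vehicle and 65.9 ± 5.80% in BPA, at 54.3 ± 7.01 and 57.9 ± 20.3 FPKM. Atp6v1c2 held 29.6 ± 2.65% and 30.9 ± 3.19% of the C subunits. The shares are a description and were not tested. Bulk values do not show which cells carry either isoform, and other tubule cells also carry the widely expressed subunits.

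**Figure D2:**
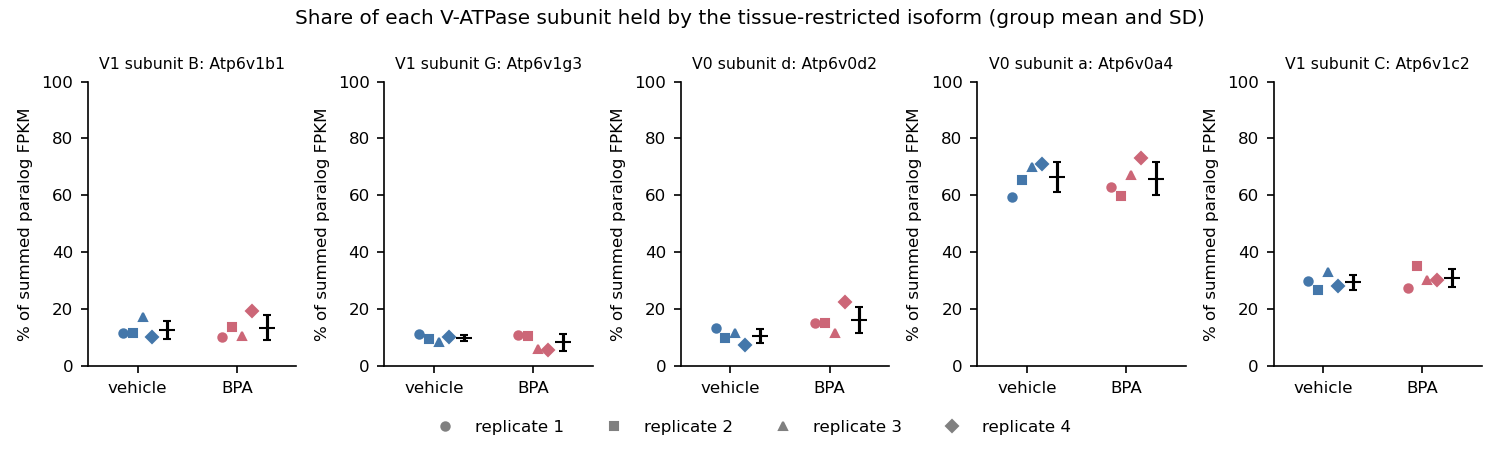
Percent of the summed FPKM of a V-ATPase subunit's paralogs held by the tissue-restricted isoform, by library (points) with group mean and SD. Atp6v0a4 holds 59.4 to 73.3% of the a subunits, while Atp6v1b1, Atp6v1g3 and Atp6v0d2 each hold at most 22.7%.

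Of the 18 widely expressed V-ATPase subunits and accessory proteins, 0 passed limma's test, 10 had a change above 0 and 8 below, and the median log2 change was 0.03. None of the 18 had an unadjusted p under 0.05. The smallest p belonged to Atp6v1f, the F subunit of the rotor, at 99.4 ± 11.1 and 76.4 ± 18.6 FPKM (log2 difference -0.41, adjusted p = 0.476). Atp6v0c encodes the proteolipid of the membrane ring, and its level is uncertain. It was at 1.66 ± 0.405 FPKM with vehicle and 1.24 ± 0.554 FPKM with BPA, with 34 to 120 reads per library. The processed pseudogene Atp6v0c-ps2 (chromosome 6, 37806086 to 37806550, plus strand) was at 329 ± 43.2 and 266 ± 103 FPKM, with 885 to 3065 reads. Its 465 bases aligned to an Atp6v0c transcript with 1 mismatch (99.8% identity), so reads of the 2 genes can be exchanged. The pseudogene does not come from the rule for named genes: it was picked once its values were known.

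The exchangers distinguish the cell types. Slc26a4, pendrin of type B cells (ENSMUSG00000020651, chromosome 12, 31519827 to 31559969, minus strand), was at 22.1, 26.4, 32.7 and 16.0 FPKM with vehicle. In BPA it was at 24.7, 20.5, 29.8 and 42.7 FPKM. The replicates 4 again held the lowest and the highest value of all 8 libraries. The log2 change was 0.26 (SE 0.262, limma adjusted p = 0.695), 0.62 within replicates 3 and 4, -0.10 within replicates 1 and 2 and -0.11 without both replicates 4. Leaving out BPA replicate 4 alone gave 0.070, and leaving out vehicle replicate 4 alone gave 0.084.

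Slc4a1, the basolateral exchanger of type A cells (ENSMUSG00000006574, chromosome 11, 102348824 to 102366203, minus strand), was at 4.34, 3.40, 3.18 and 2.64 FPKM with vehicle. The BPA libraries had 5.28, 4.04, 3.44 and 6.04 FPKM, above the vehicle mean in 4 of 4 libraries, although vehicle replicate 1 lay above BPA replicates 2 and 3. The mean was 3.39 ± 0.711 FPKM with vehicle and 4.70 ± 1.17 FPKM with BPA (log2 difference 0.37, SE 0.175, limma adjusted p = 0.473). The change was 0.22 within replicates 1 and 2, 0.52 in replicates 3 and 4, and 0.17 without both replicates 4. The same gene encodes band 3 of red cells from an upstream promoter, and gene-level values do not separate the transcripts. The 8 erythroid markers summed to 248 to 630 FPKM with vehicle and 379 to 992 FPKM with BPA; of the 5 that were tested, 4 had a change above 0 and 0 were called, and none was at 0 in all libraries. Vehicle replicate 4 was the lowest library for both Slc4a1 and the erythroid sum (248 FPKM), and BPA replicate 4 the highest for Slc4a1 with an erythroid sum of 967 FPKM. BPA replicate 2, with the highest erythroid sum (992 FPKM), had Slc4a1 at 4.04 FPKM. The erythroid heme enzyme gene Alas2 was at 2.08 ± 0.888 and 6.41 ± 4.95 FPKM (unadjusted p = 0.0426, adjusted p = 0.440). The part of red cell RNA in the Slc4a1 values was not tested.

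Aqp6, an aquaporin of intracellular vesicles in type A cells that also conducts anions (ENSMUSG00000043144, chromosome 15, 99601400 to 99605477, plus strand), was at 8.29, 8.73, 12.2 and 9.89 FPKM with vehicle. After BPA it stood at 7.11, 13.0, 7.63 and 10.6 FPKM, with 2 libraries above and 2 below the vehicle mean. Its log2 change of -0.05 (SE 0.195, limma adjusted p = 0.934) was the nearest to 0 of the 10. The sign turned without vehicle replicate 3 (0.055), BPA replicate 1 (0.068) or BPA replicate 3 (0.038). The ratio of Slc4a1 to Slc26a4 ran from 0.0975 to 0.196 in vehicle and from 0.115 to 0.214 in BPA, so the balance of the type A and type B exchanger transcripts overlapped between the groups.

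Carbonic anhydrases supply the proton and bicarbonate that the pump and exchangers move. Car12, a membrane-bound enzyme with its active site outside the cell (ENSMUSG00000032373, chromosome 9, 66713686 to 66766845, plus strand), was at 31.5, 31.1, 36.0 and 41.0 FPKM with vehicle. With BPA its level was 34.0, 31.5, 57.8 and 42.6 FPKM. BPA replicate 3 stood above all others, and BPA replicates 1 and 2 lay within the vehicle range. The log2 change was 0.21 (SE 0.194, limma adjusted p = 0.669), and 0.26 without both replicates 4. It was 0.040 without BPA replicate 3, the high library, and 0.33 without BPA replicate 2. Car12 was among the 3 members in which vehicle replicate 4 was not the lowest vehicle library.

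The cytosolic enzyme gene Car2, which intercalated cells share with other tubule segments, was at 104, 106, 85.3 and 68.0 FPKM with vehicle and at 126, 126, 112 and 114 FPKM with BPA. All 4 BPA libraries lay above all 4 vehicle libraries, but the log2 change of 0.41 (SE 0.157, unadjusted p = 0.0286, limma adjusted p = 0.415) did not pass. Of the 12 other carbonic anhydrases, 9 were tested and 0 passed, with 4 changes above 0 and 5 below and a median of -0.03. Car2 and Car8, a member without catalytic activity, had an unadjusted p under 0.05, both as higher. Car8 was at 0.405 ± 0.123 FPKM with vehicle and 0.784 ± 0.169 FPKM with BPA (adjusted p = 0.408). Car4, the membrane-anchored enzyme of the proximal tubule, was at 162 ± 9.82 and 137 ± 6.84 FPKM, again without overlap (log2 difference -0.24, adjusted p = 0.455).

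Rhcg and Rhbg encode the ammonia channels of the collecting duct, at the apical and basolateral membrane. Rhcg (ENSMUSG00000030549, chromosome 7, 79593363 to 79617657, minus strand) was at 25.3, 23.8, 31.2 and 15.2 FPKM with vehicle. In BPA it was at 20.01, 19.4, 16.7 and 24.6 FPKM. Vehicle replicate 4 was the lowest of all 8 libraries, and the other 3 vehicle libraries lay above BPA replicates 1 to 3. The log2 change was -0.20 (SE 0.209, limma adjusted p = 0.704). Without both replicates 4 it was -0.49 (unadjusted p = 0.00862, adjusted p = 0.472), with -0.30 from replicates 1 and 2 alone and -0.10 from replicates 3 and 4 alone. Leaving out vehicle replicate 3 alone brought it to -0.063, and leaving out vehicle replicate 4 alone to -0.39. Without both replicates 4, 1156 of 13376 tested genes had an unadjusted p under 0.05.

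Rhbg (ENSMUSG00000104445, chromosome 3, 88242874 to 88254709, minus strand) was at 3.78, 3.58, 4.44 and 3.09 FPKM with vehicle. The BPA libraries had 2.74, 3.58, 1.97 and 3.16 FPKM, below the vehicle mean in 4 of 4 libraries, with BPA replicates 2 and 4 above vehicle replicate 4. The mean was 3.72 ± 0.557 FPKM with vehicle and 2.86 ± 0.687 FPKM with BPA (log2 difference -0.30, SE 0.154, limma adjusted p = 0.487). It was the lowest change of the 10, and it was -0.18 within replicates 1 and 2, -0.43 within replicates 3 and 4 and -0.41 without both replicates 4. Without BPA replicate 3, its lowest library, it was -0.18. The annotated gene Gm38392 shares exons with Rhbg on the same strand and had at most 2 reads in any library. No other member shared exon bases with another annotated gene. Rhcg held 86.1 ± 2.05% of the summed FPKM of the pair in vehicle and 87.6 ± 2.23% in BPA.

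Foxi1 (ENSMUSG00000047861, chromosome 11, 34204338 to 34208089, minus strand) was at 8.43, 9.28, 10.2 and 4.81 FPKM with vehicle. After BPA it stood at 7.92, 7.16, 4.48 and 7.86 FPKM, below the vehicle mean of 8.18 ± 2.36 FPKM in 4 of 4 libraries. Vehicle replicate 4 lay below 3 of the 4 BPA libraries, so the groups overlapped. The log2 change was -0.21 (SE 0.235, limma adjusted p = 0.729), the same within replicates 1 and 2 and within replicates 3 and 4 (-0.21 in each), and -0.48 without both replicates 4 (unadjusted p = 0.0406, adjusted p = 0.573). With 1 library left out it ran from -0.41 (vehicle replicate 4) to -0.045 (BPA replicate 3), and it was -0.099 without vehicle replicate 3. In the setting without both replicates 4, 1156 of 13376 tested genes had an unadjusted p under 0.05. Atp6v1b1 and Car12, whose promoters hold the letters shown above, had changes above 0. Neither change passed, and a link of the letters or of Foxi1 to these changes was not tested.

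**Figure D3:**
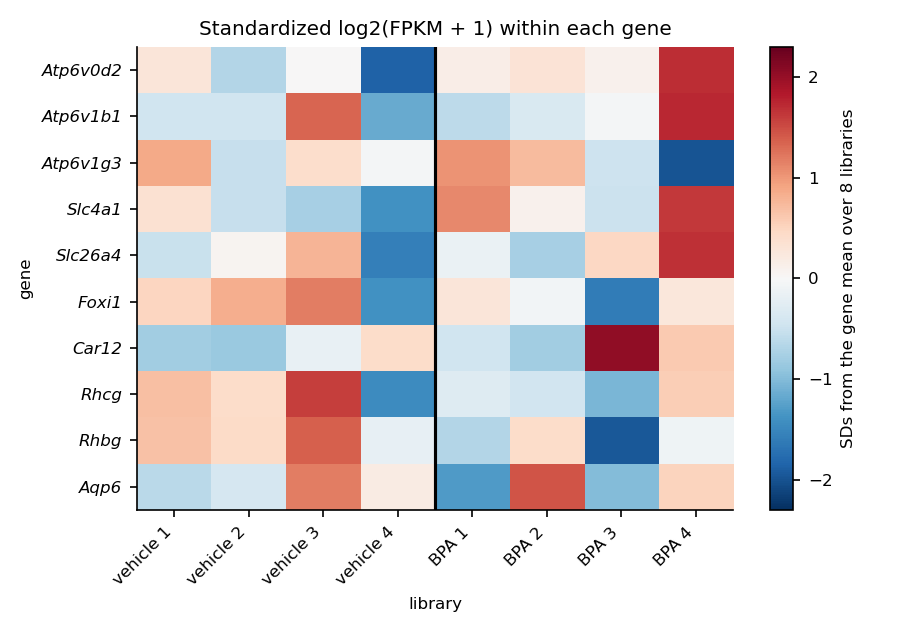
Colour gives log2(FPKM + 1) of each gene (rows) in each library (columns), in SDs from the gene's mean over the 8 libraries. Vehicle replicate 4 is the lowest vehicle library in 7 of 10 rows, and BPA replicate 4 holds the highest BPA value in 5 rows and the lowest in the Atp6v1g3 row.

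Libraries of the same group also differed from each other. Vehicle replicate 4 held the lowest vehicle value for 7 of the 10 genes, where it did so for 27.6% of all tested genes. Vehicle replicate 3 held the highest vehicle value for 6 of them, against 29.4% of tested genes. BPA replicate 4 was highest in BPA for 5 of the 10 (32.5% of tested genes) and BPA replicate 3 lowest for 5 (20.6%). The coefficient of variation within groups ran from 13.3% (Car12) to 29.7% (Atp6v1b1) in vehicle and from 16.2% (Rhcg) to 38.6% (Atp6v1g3) in BPA. The protein-coding genes whose pattern over the 8 libraries was most like the mean standardized pattern of the 10 were Hk1, Bcam, Esrrb, Egf and St14, with Pearson r of 0.958 to 0.973, out of 11231 candidates. The r values are descriptions of genes chosen for their likeness over libraries that share their tissue makeup. Egf, made by the thick ascending limb and distal convoluted tubule, was at 72.9 ± 25.4 FPKM with vehicle and 86.9 ± 19.2 FPKM with BPA. Over all 8 libraries it was lowest in vehicle replicate 4 (43.0 FPKM) and highest in BPA replicate 4 (114 FPKM). The 4 markers of the thick ascending limb summed to 158 FPKM with vehicle replicate 4 and to 355 to 667 FPKM in the other 7 libraries. Their sum in BPA replicate 4 was 406 FPKM, below the 589 and 667 FPKM of BPA replicates 1 and 2. The 5 distal convoluted and connecting tubule markers summed to 181 FPKM in vehicle replicate 4, within a vehicle range of 141 to 228 FPKM. Their highest sum was 283 FPKM, in BPA replicate 4.

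**Figure D4:**
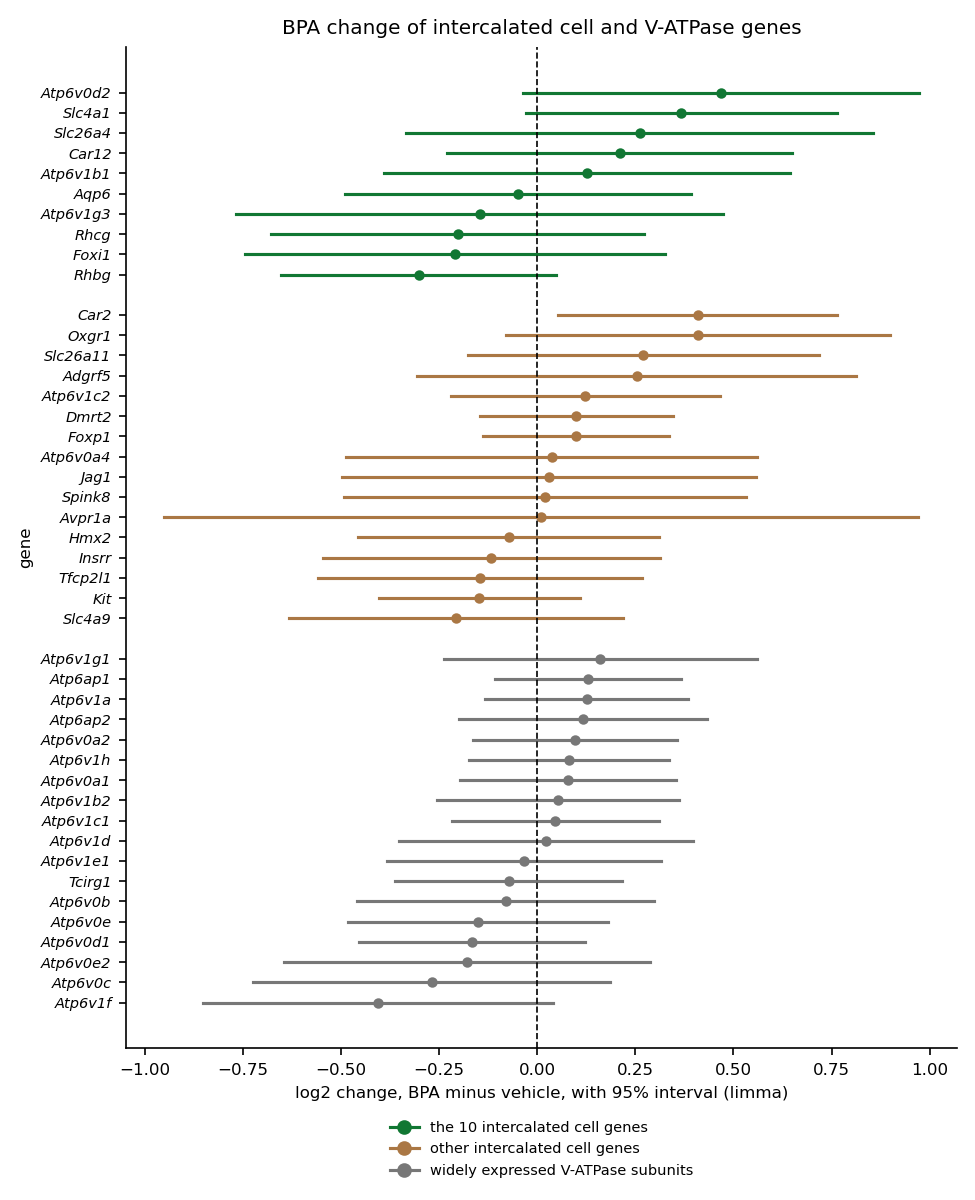
Log2 change of BPA minus vehicle with its 95% interval from limma for the 10 genes, the 16 tested other intercalated cell genes and the 18 widely expressed V-ATPase genes. The intervals of the 10 genes all include 0; that of Car2 does not, at an adjusted p of 0.415.

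Other genes of intercalated cells gave no call either. Of 19 listed, 16 were tested, 0 passed limma's test, 11 had a change above 0 and 5 below, and the median log2 change was 0.03, against -0.01 over all tested genes. Car2 was the only 1 of the 16 with an unadjusted p under 0.05. Oxgr1, the oxoglutarate receptor of type B cells, was at 5.36 ± 1.19 FPKM with vehicle and 7.59 ± 2.65 FPKM with BPA (log2 difference 0.41, adjusted p = 0.494). Slc4a9, the basolateral exchanger of type B cells, was at 13.2 ± 2.39 and 11.4 ± 3.12 FPKM (log2 difference -0.21, adjusted p = 0.663). The change of Slc26a4, of the same cells, was above 0 but turned to -0.11 without both replicates 4. Atp6v0a4 and Atp6v1c2 had changes of 0.04 and 0.12 (adjusted p = 0.955 and 0.755).

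Genes of collecting duct cell fate (Notch receptors and the factors that decide between principal and intercalated cells) had 11 of 13 tested, 0 passing, 7 above 0 and 4 below, with a median of 0.01. Adam10, a protease that cuts the Notch receptor, was at 15.4 ± 1.21 and 17.1 ± 0.585 FPKM (adjusted p = 0.546). Mib1, the ligase that activates Notch ligands, was at 8.30 ± 0.843 and 9.35 ± 1.22 FPKM (adjusted p = 0.625). Of 6 acid-base sensing genes, 4 were tested and 0 passed, with 1 above 0 and a median of -0.10. Adgrf5, an adhesion receptor of type A cells and endothelium, was at 3.61 ± 1.502 and 4.35 ± 1.04 FPKM (adjusted p = 0.687). Levels of the proton-sensing receptor Gpr4 were 0.952 ± 0.481 and 0.721 ± 0.425 FPKM (adjusted p = 0.762). Proximal tubule genes of bicarbonate and ammonia handling also had 0 of 10 passing, with 7 above 0 and a median of 0.02. Pck1, the gluconeogenic enzyme whose transcript rises in acidosis, was at 976 ± 418 FPKM with vehicle and 567 ± 174 FPKM with BPA (log2 difference -0.74, adjusted p = 0.460).

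Principal cells, the neighbours of intercalated cells, were compared beside them through a list of 8 markers, of which 7 were tested. Their summed level was 184 to 387 FPKM with vehicle and 156 to 199 FPKM with BPA, whereas the 10 intercalated genes summed to 122 to 175 FPKM with vehicle and 140 to 183 FPKM with BPA. Of the 7 principal cell markers, 6 had a change below 0, 1 had an unadjusted p under 0.05 and 0 were called. That 1 was Hsd11b2, the enzyme that protects the mineralocorticoid receptor from glucocorticoids, at 84.7, 72.4, 122 and 64.8 FPKM in vehicle and 54.7, 58.6, 49.97 and 45.8 FPKM in BPA. Its groups did not overlap, and its log2 difference was -0.67 (SE 0.195, unadjusted p = 0.00753, limma adjusted p = 0.365). Aqp2, the vasopressin-regulated water channel, was at 73.0, 70.7, 146 and 46.9 FPKM with vehicle and 67.2, 51.9, 35.5 and 33.8 FPKM with BPA (log2 difference -0.76, SE 0.348, limma adjusted p = 0.463). Aqp4 was the marker with a change above 0 (log2 difference 0.76, limma adjusted p = 0.694). Its values were 1.16, 4.998, 3.71 and 0.487 FPKM with vehicle and 8.57, 16.4, 0.918 and 1.32 FPKM with BPA. The changes of Aqp3, Scnn1b, Scnn1g and Fxyd4 were -0.14, -0.07, -0.11 and -0.31. The ratio of the intercalated to the principal sum was 0.599 ± 0.0991 in vehicle and 0.900 ± 0.206 in BPA (SD, n = 4). By replicate it was 0.644, 0.641, 0.451 and 0.661 in vehicle and 0.719, 0.735, 1.01 and 1.13 in BPA, without overlap. Without Aqp2 in the principal sum it ran from 0.725 to 0.956 in vehicle and from 1.01 to 1.43 in BPA, still without overlap. Without both Aqp2 and Hsd11b2 it ran from 1.47 to 2.14 in vehicle and from 1.75 to 2.25 in BPA, and the groups overlapped. The separation that remained without Aqp2 thus rested on Hsd11b2. On the mean log2 scale, where each gene has equal weight, the difference of the lists overlapped between the groups, from -0.29 to 0.07 in vehicle and from -0.12 to 0.52 in BPA. This ratio was picked once its values were known and was not tested.

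**Figure D5:**
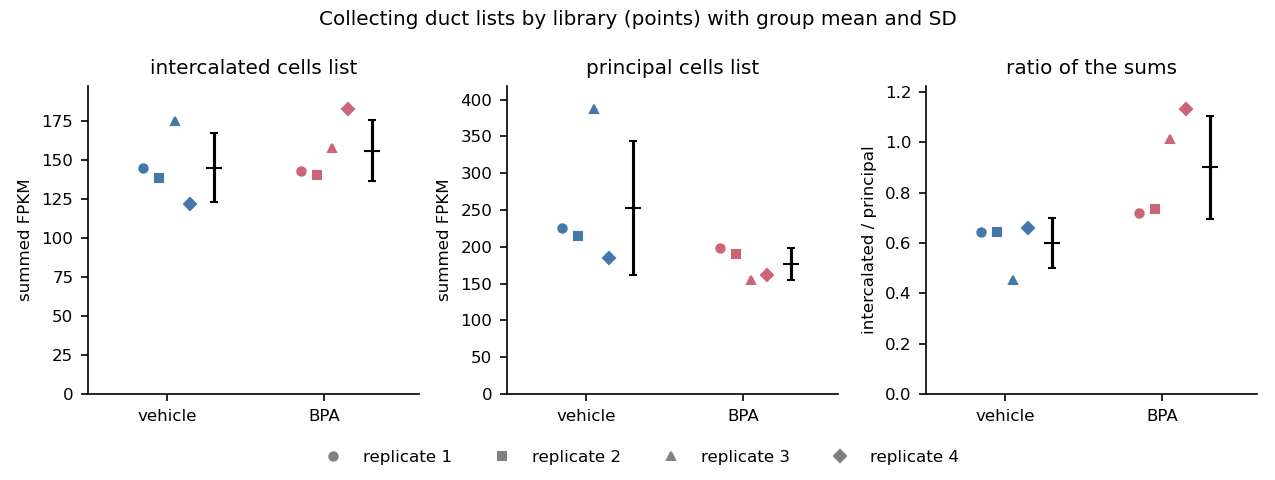
Summed FPKM of the 10 intercalated cell genes, summed FPKM of 8 principal cell markers and the ratio of the sums (linear axes from 0), by library (points) with group mean and SD. The ratio lies between 0.451 and 0.661 in vehicle and between 0.719 and 1.13 in BPA. Without Aqp2 and Hsd11b2 in the principal sum, the groups overlap.

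Changes with BPA were related to the base composition of transcripts over all tested genes. Over 13364 tested genes, which are not replicates, the log2 change with BPA had a Spearman correlation of -0.40 with GC content. GC content was 41.6 to 55.1% in the 5 genes with a change above 0 and 39.4 to 56.9% in the 5 below, with Atp6v1g3 the lowest and Rhbg the highest. The part of GC content in the changes of the 10 genes was not tested.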

How the data were processed

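The authors deposited FPKM per gene and library, with gene lengths and coordinates. The submitters' processing notes name GRCm38 and DESeq2 1.20.0 without saying what each did. No aligner, read counter or strand setting is given in the sources used here. Multiplied by gene length, low deposited FPKM values (up to 20 steps) were whole multiples of a library's step within 0.01 in 100% of cases, and reads were recovered from these steps. The library sizes that the steps imply differed from the recovered totals. They ran from 15474340 in vehicle replicate 3 (15944081 recovered) to 18315567 in vehicle replicate 1 (17351540 recovered). Columns not named for BPA were read as vehicle, the only other labelled group, and their numbers as replicates. Limma 3.58.1 in R 4.3.3 (trended, robust empirical Bayes, no covariate) was fitted to log2(FPKM + 1) of genes whose mean over 8 libraries reached 0.5 FPKM, with Benjamini-Hochberg adjustment. It was also run on simulated reads, which had a common spread setting for all genes and no outlying library, unlike these data. Named genes were the 10, fixed partners and paralogs, the called members of each pathway list or else its 2 smallest p (marker lists of other cell types are given mainly as sums), and the 5 nearest patterns. The 10 genes and all lists were chosen with earlier results of these data known. The coordinates of all 10 equal those of GENCODE M21. Promoters came from RefSeq and alignments from blastn 2.17.0. Counting and drawing used Python 3.11.15 with matplotlib 3.10.9, pandas 2.3.3 and numpy 2.4.6. Alternatives were other pseudocounts, filters and scalings, library weights, limma-voom, a replicate block, a term for replicates 1 and 2 against 3 and 4, and libraries left out.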

Additional observations from a re-analysis of the deposited data

Results flagged for a closer look

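In groups of 4 libraries, a value was marked when its gap to the nearest of the others exceeded Dixon's critical share of the group's range, which chance does in about 1 of 20 groups; 36 groups of the 10 genes and 8 fixed partners were examined and 2 were marked. Atp6v0d2 was at 17.0 FPKM in BPA replicate 4 and at 10.4 to 11.1 FPKM in the other BPA libraries. Its paralog Atp6v0d1 was at 78.5 FPKM in BPA replicate 3 and at 57.7 to 60.9 FPKM in the other BPA libraries.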

How the results depend on the processing

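None of the 10 genes was called under any of the 19 alternatives (smallest adjusted p = 0.346, Rhbg with library weights). Some settings gave members an unadjusted limma p under 0.05. Without both replicates 4 these were Rhcg (0.00862) and Foxi1 (0.0406), and without vehicle replicate 4 Rhcg (0.0382), all lower. Without vehicle replicate 1 they were Atp6v0d2 (0.0363) and Slc4a1 (0.0318), and without BPA replicate 3 Slc4a1 (0.0236), all higher. Rhbg was lower without BPA replicate 2 (0.0375) and with library weights (0.0443). In these settings 1087 to 1871 of 13376 tested genes had one. Of 190 values, 180 kept their sign. The sign turned without both replicates 4 for Atp6v1b1 (-0.16), Atp6v1g3 (0.077) and Slc26a4 (-0.11), with library weights for Atp6v1b1 (-0.027) and Atp6v1g3 (0.13), without BPA replicate 4 for Atp6v1b1 (-0.052) and Atp6v1g3 (0.11), and for Aqp6 without vehicle replicate 3 (0.055), BPA replicate 1 (0.068) or BPA replicate 3 (0.038); the cause was not tested. With 1 library left out at a time, the changes ran from -0.052 to 0.30 for Atp6v1b1, -0.32 to 0.11 for Atp6v1g3 and -0.19 to 0.068 for Aqp6, and, with no change of sign, from 0.29 to 0.58 for Atp6v0d2, 0.26 to 0.48 for Slc4a1, 0.070 to 0.41 for Slc26a4, 0.040 to 0.33 for Car12, -0.41 to -0.045 for Foxi1, -0.39 to -0.063 for Rhcg and -0.39 to -0.18 for Rhbg. The median change of the 10 ran from -0.10 (without both replicates 4) to 0.14. Over all tested genes, 1 was called in the main analysis, 0 with limma-voom on recovered reads (1507 with an unadjusted p under 0.05), 8 with library weights, 2 with the term for replicates 1 and 2 against 3 and 4, and 0 to 4 when each library was left out: 0 without vehicle replicate 1 (1167 unadjusted), vehicle replicate 3 (1099) or BPA replicate 2 (1685), 2 on leaving out BPA replicate 4 or vehicle replicate 2, 3 on leaving out BPA replicate 1 or vehicle replicate 4, and 4 without BPA replicate 3. With the replicate block 0 were called (1376 at an unadjusted p under 0.05), and the block changed no call of the 10 genes. Same-numbered libraries correlated at 0.14, 0.02, 0.14 and -0.03 in their deviations from the group means. Such deviations sum to 0 within each group of 4 libraries, so these values cannot decide whether samples were paired by number. Vehicle replicate 4 correlated at 0.19 with BPA replicate 3 and vehicle replicate 1 at -0.22. The term for replicates 1 and 2 against 3 and 4, which Arntl separates in both groups, changed no call of the 10 genes. With 4 libraries per group, Rhbg at 62 to 134 reads is limited by depth most.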
